A study of Mus musculus with 23 samples.

Results

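The genes described here are 42 cell cycle and DNA replication genes, taken by symbol from the 48897 genes of the deposited table, where all 42 were found. By role, 12 act in S phase or in DNA replication, 21 act in G2 and mitosis, 4 are transcription factors of the cell cycle, 4 are cyclins of G1 and of the G1/S transition, and 1 is the cyclin-dependent kinase inhibitor Cdkn1a. They were followed through 3 groups of bulk tissue: livers of 5 sham-operated mice (control liver), livers of 9 mice bearing an orthotopic CT26 tumor (pre-metastatic liver), and the primary tumors of those same 9 mice. All were male BALB/c mice aged 4 to 6 weeks at the start. CT26 is a mouse colon carcinoma line, injected here orthotopically into the cecum, while sham-operated mice were injected with medium alone, and tissues were taken 3 weeks after injection. All groups share 1 strain, the tumors all come from 1 cell line, and neither the livers nor the tumors were sorted, so a tumor sample holds host cells beside CT26 cells. In such bulk samples, more cells of a type and more RNA per cell cannot be told apart.

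A cell that commits to division first raises D and E cyclins, which with their kinases release E2F factors from the retinoblastoma proteins. E2F factors then switch on the genes that license and copy DNA, such as the MCM helicase subunits, the clamp PCNA, and the enzymes that make deoxynucleotides. The DREAM complex of resting cells gives way to MYBL2 and, by G2, FOXM1, which act through CHR elements of promoters. They switch on the genes of mitosis, such as the B cyclins, the kinesins, and the spindle checkpoint kinases. The adult liver is mostly quiescent, and Cdkn1a (p21), which binds and blocks cyclin-kinase complexes, is one of the brakes on hepatocyte division.

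These elements were looked for in the promoters of the genes, from RefSeq on GRCm38.p6, in the 250 bases before and 50 bases after each annotated start. A promoter was listed for 32 of the 42 genes, and none was listed for Mcm4, Gins2, Cdc25c, Aurkb, Kif20a, Ccna2, Foxm1, Ccnd1, Ccnd2, and Ccne2. The CHR element was searched as TTTGAA or TTCGAA, the E2F site as TTTCCCGC, TTTCGCGC, TTTGCCGC, or TTTGGCGC, and the CCAAT box, which binds NF-Y, as CCAAT, each on both strands. Shares of the S-phase and mitotic genes below count each gene once, with a match in any of its listed promoters, while shares of all promoters count promoters. Mcm7 had 2 promoters listed, and only the upstream one held CHR and E2F matches. A CHR match lay in 14 of 17 mitotic promoters (82.4%), in 2 of 10 S-phase promoters (20%), and in 19.2% of all 32851 promoters listed. An E2F match lay in 4 of 10 S-phase promoters (40%), in 1 of 17 mitotic promoters (5.88%), and in 2.26% of all promoters. A CCAAT box lay in 16 of 17 mitotic and 8 of 10 S-phase promoters, against 37.4% of all. Within 50 bases of the start, a distance chosen after the matches had been seen, 13 of 17 mitotic promoters and 0 of 10 S-phase promoters held a CHR match, against 5.31% of all promoters. The motifs can overlap each other, and E2F matches on opposite strands overlap in Mcm5 and Mcm6. A match describes letters of the reference sequence and is no evidence of binding.

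The 160 bases just before the start are given for 2 S-phase genes with E2F matches, Mcm5 (chr8:75109349-75109508, plus strand) and Mcm6 (chr1:128359706-128359865, minus strand), and for 4 mitotic genes with CHR matches, Cdk1 (chr10:69352913-69353072, minus strand), Cdc20 (chr4:118437344-118437503, minus strand), Top2a (chr11:99024190-99024349, minus strand), and Mki67 (chr7:135716380-135716539, minus strand), all on GRCm38.p6. They are examples of genes with matches and do not stand for their classes. Mcm6 and Mcm5 had the largest log2 rises of the S-phase genes between the livers. Ccnb1, with the largest rise of the mitotic genes tested there, held no CHR match and is not shown. Capitals mark the E2F, CHR, and CCAAT matches.
Mcm5: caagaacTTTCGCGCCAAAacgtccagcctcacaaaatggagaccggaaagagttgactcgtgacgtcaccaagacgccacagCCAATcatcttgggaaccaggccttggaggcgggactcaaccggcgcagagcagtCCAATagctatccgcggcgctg
Mcm6: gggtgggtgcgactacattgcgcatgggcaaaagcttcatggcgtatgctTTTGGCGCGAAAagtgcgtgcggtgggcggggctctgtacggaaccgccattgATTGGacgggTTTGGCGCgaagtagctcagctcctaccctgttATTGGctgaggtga
Cdk1: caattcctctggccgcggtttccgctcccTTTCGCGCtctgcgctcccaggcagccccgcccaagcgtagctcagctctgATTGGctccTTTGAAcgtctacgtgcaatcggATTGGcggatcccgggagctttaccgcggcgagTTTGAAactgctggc
Cdc20: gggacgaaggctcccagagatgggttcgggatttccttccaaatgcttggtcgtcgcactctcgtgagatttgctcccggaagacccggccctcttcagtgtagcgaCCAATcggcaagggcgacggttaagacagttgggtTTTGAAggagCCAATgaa
Top2a: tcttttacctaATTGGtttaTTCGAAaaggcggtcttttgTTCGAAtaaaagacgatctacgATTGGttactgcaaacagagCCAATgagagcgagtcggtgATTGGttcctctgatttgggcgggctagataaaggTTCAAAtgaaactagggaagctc
Mki67: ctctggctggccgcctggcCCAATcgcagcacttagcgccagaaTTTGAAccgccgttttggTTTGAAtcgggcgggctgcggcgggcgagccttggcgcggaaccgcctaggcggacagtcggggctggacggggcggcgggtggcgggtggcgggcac
In Mcm6 the first E2F match begins at base -110 and the last at base -47, and in Mcm5 the pair begins at bases -153 and -149, counted back from the start. The CHR match of Cdc20 begins at base -18 and lies between 2 CCAAT boxes, at bases -53 and -8. Cdk1 alone among the mitotic promoters held both kinds of element, an E2F match at base -131 and CHR matches at bases -71 and -15. The CHR matches of Mki67 lie farther out, at bases -116 and -98.

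Total counts were 51064615 to 60393702 in control liver, 44587556 to 79773163 in pre-metastatic liver, and 47005276 to 70884436 in the primary tumor, and no 2 libraries of a group were alike within sampling noise (lowest chi-square over its degrees of freedom 49.3). Each liver comes from its own mouse. Levels of 6 clock genes split the livers into an early phase (4 control and 5 pre-metastatic livers) and a late phase (1 control liver, C7, and 4 pre-metastatic livers, M1, M2, M10, and M12), a grouping made from the data and not a label. M7, counted as early, lay nearest the cut, at a clock index of -0.1016, with the other early-phase livers at -2.35 to -0.5977. Hepatocyte markers summed to 30900 to 64800 RPKM in the livers and to 6.07 to 28.3 RPKM in 7 tumors, but to 140 and 261 RPKM in the tumors of M10 and M12. RPKM is the count scaled by gene length in kilobases and by library size, and levels below are RPKM. Of 7 epithelial markers, Krt20 was higher in tumor than in pre-metastatic liver (log2 fold change 6.99 ± 0.705 (SE), edgeR adjusted p = 1.47e-08), while 6 of the 7, Krt8 among them, were lower.

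**Figure D1:**
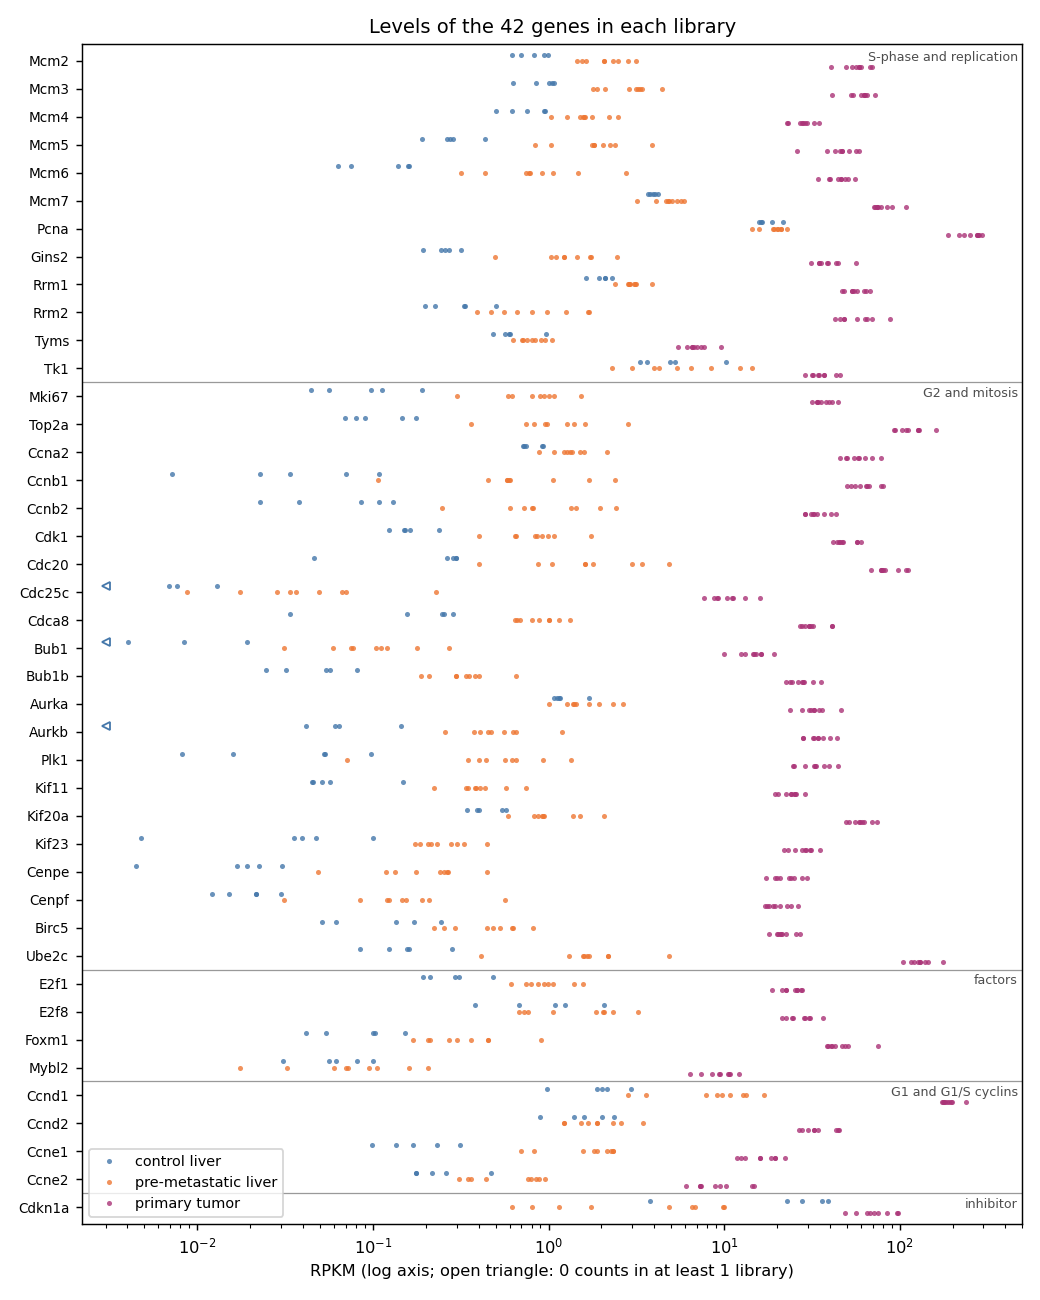
Level of each of the 42 genes as RPKM on a log axis, 1 point for each of the 23 libraries, colored by group, with an open triangle at the left edge where at least 1 library had 0 counts. Tumors sit to the right of both liver groups for every gene, and for Cdkn1a the pre-metastatic livers sit to the left of 4 of the 5 control livers.

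The first comparison asked how the liver of a tumor-bearing mouse, at the pre-metastatic stage, differs from the liver of a mouse without a tumor. The division genes were higher there, and the inhibitor was lower: of the 41 genes that passed the count filter, 33 rose and 1, Cdkn1a, fell at an adjusted p under 0.05. Over all 16987 genes tested, 17.7% rose and 13.3% fell. In 25 of the 42 genes every pre-metastatic liver exceeded every control liver, which held for 4.85% of all genes tested. The median log2 fold change was 2.28 over the 41 genes, 1.38 over the 12 S-phase genes, and 3.22 over the 20 mitotic genes tested, against 0.0118 over all genes tested. Scaling by library totals in place of TMM lowered the share of risers among all called genes from 57.1% to 46% and left 32 risers among the 42.

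Among the replication genes, the MCM subunits, which form the helicase that unwinds DNA, rose unequally. Mcm6 was at 0.0635, 0.0753, 0.139, 0.159, and 0.16 RPKM in the control livers C1, C4, C5, C6, and C7, and in pre-metastatic liver its lowest, median, and highest levels were 0.319, 0.784, and 2.77 RPKM. The groups did not overlap, and the rise was 9.46-fold (log2 fold change 3.24 ± 0.52 (SE), n = 5 and 9, edgeR adjusted p = 0.000395). Mcm5 was at 0.191, 0.264, 0.284, 0.436, and 0.273 RPKM in the same order of control livers and at 0.842, 1.82, and 3.88 RPKM (lowest, median, and highest) in pre-metastatic liver, a rise of 2.89 ± 0.36 on the log2 scale (edgeR adjusted p = 7.77e-05). Mcm3, Mcm2, and Mcm4 started higher, at control means of 0.917, 0.815, and 0.755 RPKM, and rose by 1.76 ± 0.23, 1.51 ± 0.21, and 1.24 ± 0.22 on the log2 scale without overlap. Mcm7, the sixth subunit, was at 3.7 to 4.2 RPKM in control liver and 3.18 to 5.88 RPKM in pre-metastatic liver, so the groups overlapped. Its rise of 0.40 ± 0.14 on the log2 scale had an edgeR adjusted p of 0.0478, and it no longer passed when any 1 of 12 of the 14 livers was left out, every liver but M1 and M2 (edgeR adjusted p = 0.0537 without M10 to 0.0953 without C5).

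The other replication genes did not all pass the test. Gins2, a subunit of the GINS complex that joins the MCM helicase, was at 0.193 to 0.319 RPKM in control liver and at 0.497, 1.23, and 2.47 RPKM (lowest, median, and highest) in pre-metastatic liver, a 5.75-fold rise without overlap. Of the ribonucleotide reductase subunits, which make deoxynucleotides, Rrm2 rose 3.2-fold (log2 fold change 1.68 ± 0.42, edgeR adjusted p = 0.00769) with 1 control liver, C5 at 0.504 RPKM, above 2 pre-metastatic livers, M2 at 0.391 and M7 at 0.472 RPKM. Its partner Rrm1 rose 1.59-fold, from 1.64 to 2.31 RPKM in control liver to 2.4 to 3.87 RPKM, without overlap. The replication clamp Pcna was by far the highest of the S-phase genes in control liver, at 15.7 to 21.7 RPKM, and stood at 14.5 to 22.9 RPKM in pre-metastatic liver (log2 fold change 0.21 ± 0.11, edgeR adjusted p = 0.168). The thymidylate enzymes Tyms and Tk1 did not pass either, at log2 fold changes of 0.44 ± 0.17 (edgeR adjusted p = 0.0568) and 0.36 ± 0.41 (edgeR adjusted p = 0.533). Tyms passed when C7, a control liver at 0.967 RPKM against 0.484 to 0.607 RPKM in the others, was left out (log2 fold change 0.62, edgeR adjusted p = 0.0108), and when M2 was left out (edgeR adjusted p = 0.0464). Tk1 spread widely in both groups, from 3.31 to 10.3 RPKM and from 2.3 to 14.5 RPKM, and its estimate was -0.435 among the early-phase livers alone.

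The mitotic genes rose together and from lower levels. Ccnb1, cyclin B1 of the mitotic kinase, was at 0.00715, 0.0227, 0.108, 0.0338, and 0.0707 RPKM in C1, C4, C5, C6, and C7, that is 1 to 15 counts, and at 0.107, 0.598, and 2.4 RPKM (lowest, median, and highest) in pre-metastatic liver. M2 alone lay within the control range, and the rise was 4.32 ± 0.76 on the log2 scale (edgeR adjusted p = 0.000749). Its kinase Cdk1 was at 0.123 to 0.239 RPKM in control liver and at 0.4, 0.862, and 1.74 RPKM (lowest, median, and highest) in pre-metastatic liver, a 5.83-fold rise without overlap. Mki67, the proliferation antigen, went from 0.0442, 0.0973, 0.19, 0.0562, and 0.113 RPKM in the control livers to 0.302, 0.891, and 1.53 RPKM (lowest, median, and highest), a 9.32-fold rise (log2 fold change 3.22 ± 0.42, edgeR adjusted p = 0.000103). Top2a, the topoisomerase that untangles sister chromatids, went from 0.0696 to 0.177 RPKM to 0.36, 0.978, and 2.82 RPKM, an 11.8-fold rise without overlap.

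The rise took in genes of several steps of mitosis. Of the spindle checkpoint, Bub1 rose by 4.15 ± 0.73 on the log2 scale from 0 to 5 counts per control liver, and Bub1b by 2.87 ± 0.39. Bub1 reached 10 counts in no control liver and passed the count filter only through the pre-metastatic livers. A fall from such counts could not have entered the test, yet Bub1 is among the risers and the genes without overlap counted above. Genes with any control liver under 10 counts also needed pre-metastatic livers to pass the filter. They were Ccnb1, Ccnb2, Cdc20, Cdca8, Bub1b, Aurkb, Plk1, Kif23, Cenpe, Cenpf, Birc5, Ube2c, and Mybl2. All but Mybl2 are among the risers counted above and enter the mitotic median. Of the anaphase-promoting complex, its activator Cdc20 rose 9.43-fold and its ubiquitin-conjugating enzyme Ube2c 12.9-fold, the latter from 0.0841 to 0.283 RPKM to 0.41 to 4.86 RPKM. The kinetochore genes Cenpe and Cenpf rose 12.5-fold and 9.85-fold, and the mitotic kinesins Kif11, Kif23, and Kif20a rose 6.53-fold, 6.16-fold, and 2.67-fold. Of the kinases that drive mitosis, Plk1 rose 13.7-fold and Aurkb 9.34-fold, and the Aurora B partners Cdca8 and Birc5 rose 4.87-fold and 3.87-fold. Ccnb2 rose 16-fold, while Ccna2, the cyclin of S phase and G2, rose 1.82-fold, from 0.715 to 0.936 RPKM to 0.887 to 2.14 RPKM with overlap. Aurka was the only mitotic gene tested that did not pass, at 1.08 to 1.69 RPKM in control liver and 1.0 to 2.66 RPKM in pre-metastatic liver (log2 fold change 0.54 ± 0.25, edgeR adjusted p = 0.109). Cdc25c, the phosphatase that frees Cdk1, had 0 to 2 counts in each control liver and 1 to 33 counts in each pre-metastatic liver. It did not enter the test, since fewer than 5 livers reached 10 counts.

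**Figure D2:**
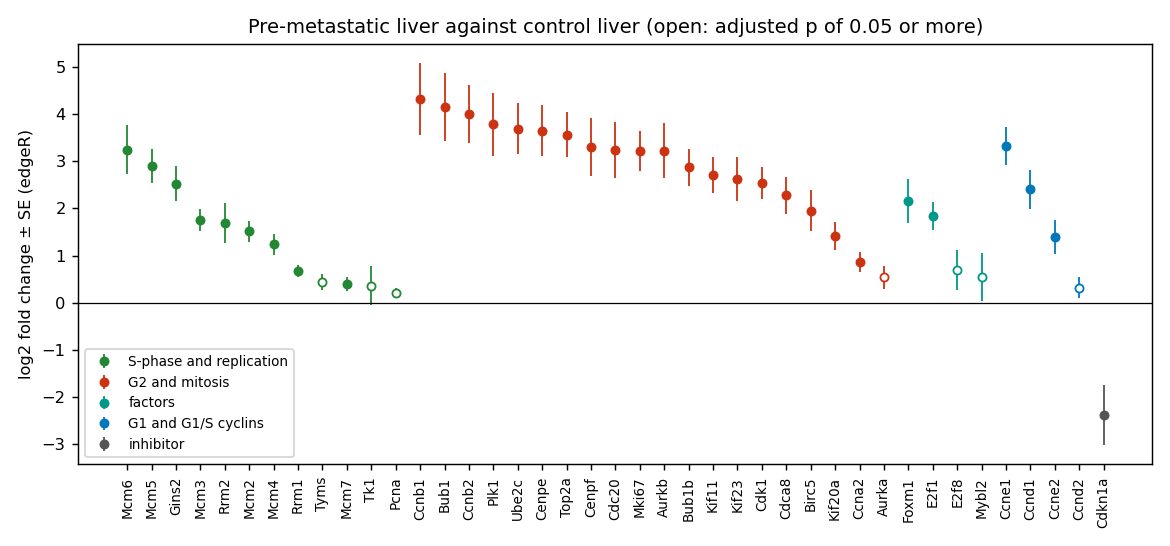
Log2 fold change (edgeR, pre-metastatic liver over control liver) with its standard error for the 41 genes tested, grouped by role and ordered within a group, with open symbols for genes that did not pass an adjusted p of 0.05. Mitotic genes reach 4.32 and S-phase genes 3.24, and Cdkn1a stands alone at -2.38.

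The mitotic genes had the larger log2 rise, but not the larger rise in RPKM. The median of the mitotic genes exceeded that of the S-phase genes by 1.85 on the log2 scale, a description with no test since the genes were chosen with these data known. In each library, the mean log2 CPM (the count scaled by TMM library size) of the mitotic genes minus that of the S-phase genes was -3.62 to -2.77 in control liver, -2.73 to -0.636 in pre-metastatic liver, and -0.301 to -0.00388 in tumor, so the 3 groups did not overlap. On the linear scale, the median rise per gene was 1.06 RPKM for the S-phase genes and 0.552 RPKM for the mitotic genes. The group means, summed over lists of unequal length, went from 33.3 to 46.8 RPKM for the 12 S-phase genes and from 4.06 to 17.4 RPKM for the 21 mitotic genes, differences of 13.5 and 13.3 RPKM.

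The size of the log2 rise went with the control level of the gene within both classes. The 4 S-phase genes with control means below 0.5 RPKM (Mcm5, Mcm6, Gins2, and Rrm2) had a median log2 fold change of 2.71, and the other 8 had 0.56. Likewise the 18 mitotic genes below 0.5 RPKM had a median of 3.23, and Ccna2 and Aurka, the 2 above it, had 0.70. As an example of like control levels, Mcm6 at a mean of 0.119 RPKM rose by 3.24 ± 0.52, and the mitotic Top2a, at 0.113 RPKM, by 3.56 ± 0.48. Other genes at like levels differed more. The mitotic Birc5, at 0.133 RPKM, rose by 1.95 ± 0.44 and Ube2c, at 0.162 RPKM, by 3.69 ± 0.54. The S-phase gene Gins2, at 0.257 RPKM, rose by 2.52 ± 0.37 and the mitotic Cdc20, at 0.238 RPKM, by 3.24 ± 0.60. Over the 32 genes Spearman's rho between control level and log2 fold change was -0.864 (-0.867 over 12 S-phase genes and -0.663 over 20 mitotic genes). These points share their control livers, which enter both measures, and the limit of 0.5 RPKM was set after the values had been seen.

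**Figure D3:**
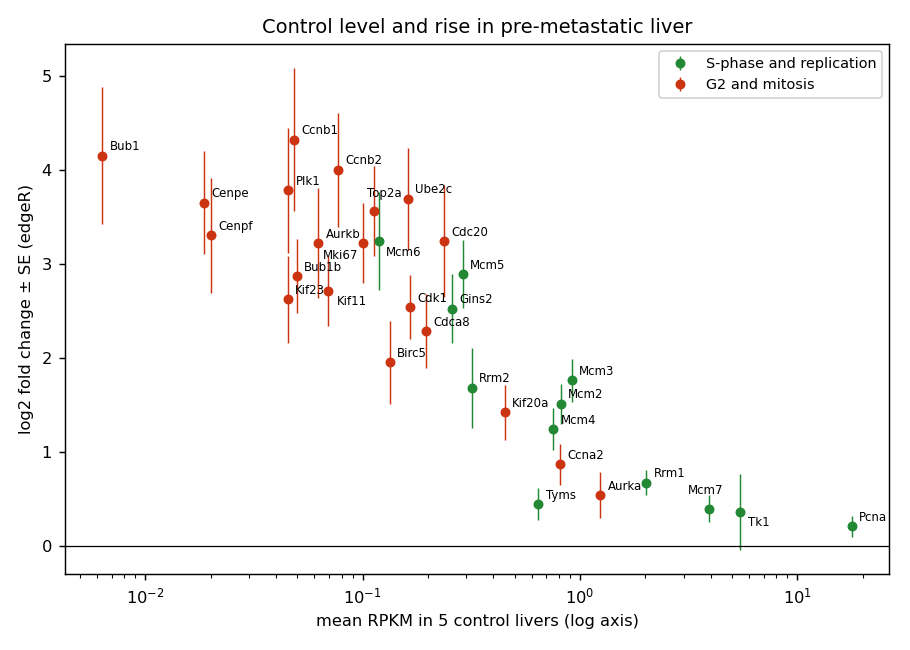
Mean RPKM in the 5 control livers (log axis) against the log2 fold change with its standard error in pre-metastatic liver for 12 S-phase and 20 mitotic genes. The points of both classes fall from upper left to lower right, with Mcm6 (0.119 RPKM) beside Top2a (0.113 RPKM) at the upper left and Pcna at the lower right.

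The mice did not rank alike in the 2 classes. Liver M6 was the highest of the 9 pre-metastatic livers in 21 of 21 mitotic genes, and liver M12 was the highest in 10 of 12 S-phase genes. M6 held 4.86 RPKM of Ube2c and 2.4 RPKM of Ccnb1, against 2.19 and 0.604 RPKM in M12, while M12 held 2.77 RPKM of Mcm6 and 3.88 RPKM of Mcm5, against 0.749 and 1.78 RPKM in M6. The mean of the mitotic genes minus that of the S-phase genes was accordingly -0.636 in M6 and -2.43 in M12. Liver M2 was the lowest of the group in 30 of the 42 genes, and among control livers C5 was the highest in 15 of 21 mitotic genes.

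**Figure D4:**
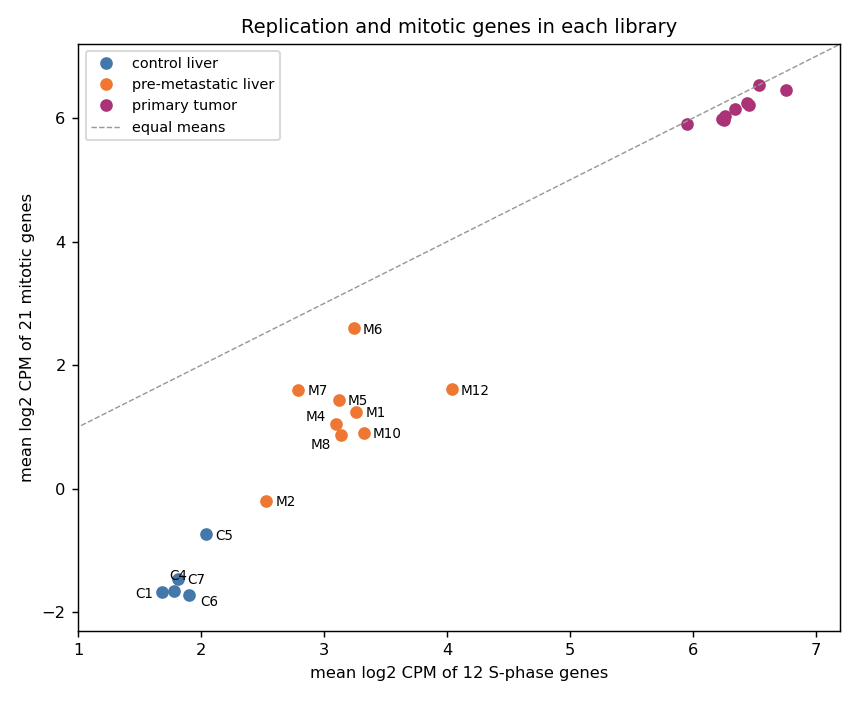
Mean log2 CPM of the 12 S-phase genes (horizontal) and of the 21 mitotic genes (vertical), 1 point per library, with mouse names for the livers and a dashed line where the means are equal. Control livers lie at the lower left, pre-metastatic livers between 2.53 and 4.04 on the horizontal axis with M6 on top and M12 farthest right, and tumors next to the line.

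Some or all of the tested markers of blood cell precursors, leukocytes, epithelium, and fibroblasts were also higher in pre-metastatic than in control liver. Of the 5 granulocyte precursor markers 4 were tested and 4 rose, Prtn3 by 5.99 ± 0.44 on the log2 scale, and their summed level went from 1.38 to 2.97 RPKM in control liver to 27.1 to 112 RPKM, with no marker at 0 throughout a group. Prtn3 alone, at 26.8 to 109 RPKM, was most of that sum in pre-metastatic liver. Mpo, Elane, and Ctsg reached at most 4.67, 3.97, and 2.91 RPKM there and overlapped control liver. Of the 8 red cell precursor markers 5 were tested and 3 rose, Slc4a1 by 3.45 ± 0.36, and their sum went from 11 to 17.5 RPKM to 14.3 to 85.1 RPKM. Alas2 alone, at 9.79 to 16.6 and 13.2 to 83.7 RPKM, was most of that sum. Klf1 did not pass (log2 fold change -0.09 ± 0.26, edgeR adjusted p = 0.818). The 4 leukocyte markers all rose, from sums of 5.9 to 13.8 RPKM to 14.1 to 36 RPKM, as did the 4 macrophage markers and 3 of 4 B cell markers. The 4 T cell markers, at log2 fold changes of 0.34 to 0.74, did not pass. Of the 7 epithelial markers 4 rose, Krt20 by 3.67 ± 1.24 (edgeR adjusted p = 0.035), Vil1 by 2.99 ± 1.04, Krt19 by 2.03, and Cdh1 by 0.975 on the log2 scale. Krt20 and Vil1 stayed low, at medians of 0.0928 and 0.0714 RPKM in pre-metastatic liver. The list is not specific to colon or tumor. Krt8 was at 95.3 to 127 RPKM in control liver, and Vil1, Krt19, and Cdh1 were lower in tumor than in pre-metastatic liver. The list sum, most of it in markers that did not pass, was 263 to 300 RPKM in control liver and 194 to 326 RPKM in pre-metastatic liver. Of the 4 fibroblast markers the collagens Col1a1 and Col1a2 rose, by 2.71 ± 0.39 and 2.21 ± 0.33, at list sums of 67.2 to 102 and 37.8 to 127 RPKM. Of the 6 hepatocyte markers Cps1 and Hnf4a fell (log2 fold changes -1.61 and -0.70). Liver M6, highest in the mitotic genes, had the lowest red cell precursor sum of its group (14.3 RPKM) and the highest hepatocyte sum (64800 RPKM), with a granulocyte precursor sum of 92.3 RPKM. Liver M2, lowest in most of the genes, had the lowest granulocyte precursor sum (27.1 RPKM) and a red cell precursor sum of 65 RPKM. What part these cells have in the rise was not tested.

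The regulators upstream moved in part. E2f1, which drives S-phase genes, rose 3.59-fold, from 0.192 to 0.484 RPKM to 0.615 to 1.57 RPKM, and Foxm1, which drives mitotic genes, rose 4.47-fold, from 0.0417 to 0.153 RPKM to 0.17 to 0.911 RPKM, both without overlap. Mybl2, the partner of Foxm1 in G2, did not pass, at 0.0308 to 0.1 and 0.0175 to 0.206 RPKM (log2 fold change 0.55 ± 0.50, edgeR adjusted p = 0.435), and neither did E2f8, a repressor of E2F targets, at 0.38 to 2.07 and 0.68 to 3.25 RPKM (log2 fold change 0.69 ± 0.43, edgeR adjusted p = 0.236).

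Of the 4 cyclins of G1 and of the G1/S transition 3 rose, with a median log2 fold change of 1.90. Ccne1, cyclin E1, was at 0.135, 0.0987, 0.315, 0.17, and 0.233 RPKM in C1, C4, C5, C6, and C7 and at 0.693, 1.89, and 2.32 RPKM (lowest, median, and highest) in pre-metastatic liver. Every pre-metastatic liver lay above every control liver, a 9.96-fold rise with the smallest adjusted p of the 41 genes (log2 fold change 3.32 ± 0.40, edgeR adjusted p = 5.93e-05). Ccnd1, cyclin D1, the cyclin through which growth signals reach hepatocytes, was at 0.983, 2.16, 2.94, 1.9, and 2.01 RPKM in the control livers and at 2.84, 9.76, and 16.8 RPKM in pre-metastatic liver. M4 alone overlapped the controls, and the rise was 5.29-fold (log2 fold change 2.40 ± 0.42, edgeR adjusted p = 0.000751). Livers M2 and M4 were the lowest of the pre-metastatic group for both cyclins. Ccne2 rose 2.62-fold, and its levels lay at 0.31 to 0.763 RPKM in early-phase and 0.798 to 0.953 RPKM in late-phase pre-metastatic livers, with C7, the late-phase control, highest of its group at 0.472 RPKM. Its rise was 1.14 ± 0.25 on the log2 scale with clock phase as a covariate (edgeR adjusted p = 0.00352), against 1.39 ± 0.36 without it. Ccnd2 did not pass (log2 fold change 0.32 ± 0.22, edgeR adjusted p = 0.296).

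Cdkn1a, the inhibitor, was the one gene of the 42 to fall. It was at 27.9, 39.3, 36.1, and 22.8 RPKM in the early-phase control livers C1, C4, C5, and C6 and at 3.8 RPKM in the late-phase C7. In pre-metastatic liver it was at 9.98, 6.84, 9.82, 4.87, and 6.59 RPKM in the early-phase M4, M5, M6, M7, and M8 and at 1.15, 0.617, 0.808, and 1.75 RPKM in the late-phase M1, M2, M10, and M12. Within each phase as grouped here the pre-metastatic livers were all lower than the controls. Across phases C7 lay below all 5 early-phase pre-metastatic livers, so the groups overlapped. M7, the early-phase liver nearest the cut between phases, was at 4.87 RPKM, above C7. The level was 5.22-fold lower over all livers (log2 fold change -2.38 ± 0.64, edgeR adjusted p = 0.0108), and the log2 fold change was -1.97 ± 0.24 among the early-phase livers (edgeR adjusted p = 0.000719), and -1.89 ± 0.26 with phase as a covariate (edgeR adjusted p = 0.000151). By the exact Wilcoxon test on RPKM, with no regard to phase, its adjusted p was 0.0604. The late phase held 1 control liver and could not be fitted alone.

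Cdkn1a is the textbook target of p53. The upstream of its 2 RefSeq starts is preceded by 2 matches to the p53 decamer, searched on both strands, which capitals mark in these 160 bases of chr17:29090819-29090978 (plus strand, GRCm38.p6).
Cdkn1a: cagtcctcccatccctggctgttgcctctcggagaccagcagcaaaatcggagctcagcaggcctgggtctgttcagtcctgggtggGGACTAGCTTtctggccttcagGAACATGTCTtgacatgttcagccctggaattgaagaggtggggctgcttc
A p53 decamer lay in the promoters of 6 of the 32 genes (18.8%) and in 8.36% of all promoters. Trp53 itself was at 7.86 to 9.3 RPKM in control liver and 5.63 to 10.5 RPKM in pre-metastatic liver (log2 fold change -0.04 ± 0.15, edgeR adjusted p = 0.855). Of 18 other p53 targets, 5 rose, Eda2r by 1.46 ± 0.46 and the cell death gene Bbc3 by 1.18 ± 0.35 among them, and 1, Mdm2, the ligase that degrades p53, fell (log2 fold change -0.36, edgeR adjusted p = 0.0438, named after its values were seen). The other 12 were not called, and over all genes tested 17.7% rose and 13.3% fell.

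**Figure D5:**
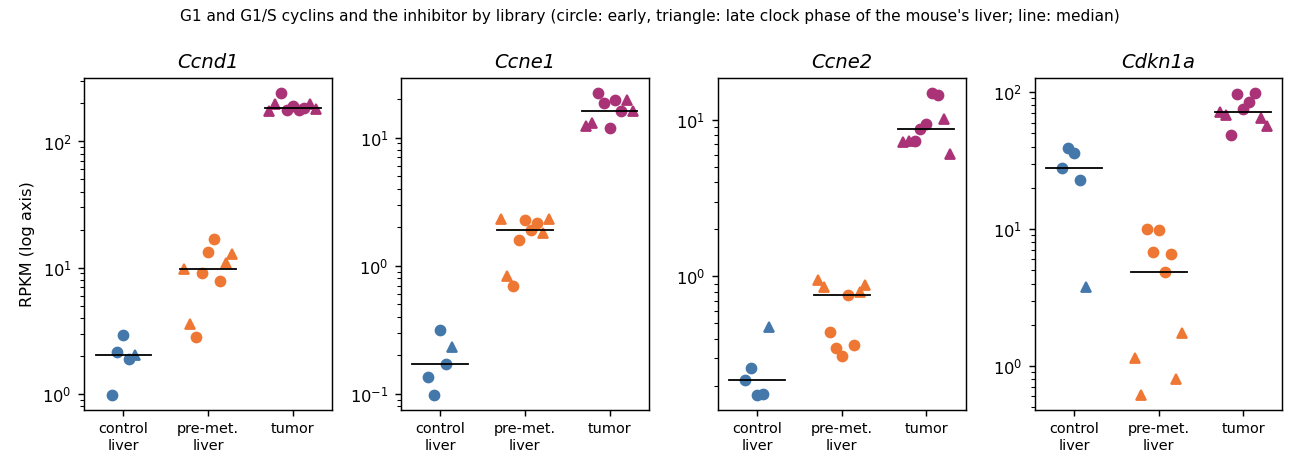
Levels of Ccnd1, Ccne1, Ccne2, and Cdkn1a by library on log axes, with circles for mice whose liver was in the early clock phase, triangles for the late phase, and a line at the group median. Cyclin levels step up from control to pre-metastatic liver, with 0.17 and 1.89 RPKM as the medians of Ccne1, and the triangles of Cdkn1a lie under the circles in both liver groups.

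In wider lists of the same pathways mitotic genes again had the larger median. Of 36 other replication genes 35 were tested, 23 rose, and 12 did not pass, with a median log2 fold change of 0.79. Over all genes tested 17.7% rose. The largest rises were those of Exo1, an exonuclease of replication repair (3.78 ± 0.71), and of Uhrf1, which keeps DNA methylation through replication (3.68 ± 0.60). Of 46 other mitotic genes 40 rose and 1, Spc24 of the kinetochore, fell (log2 fold change -0.996, named after its values were seen), with a median of 2.57. Ckap2, a spindle protein, rose by 5.16 ± 0.64 and the mitotic kinase Pbk by 4.99 ± 0.68. Of 32 other cell cycle regulators 30 were tested, 10 rose, and 4 fell (13.3%, the same share as over all genes tested), with a median of 0.30. Pkmyt1, the inhibitory kinase of Cdk1, rose by 3.39 ± 0.54 and the inhibitor Cdkn2b by 2.24 ± 0.47. Of the 4 that fell, all named after their values were seen, Cdkn1c is an inhibitor of cyclin-dependent kinases (log2 fold change -1.39, edgeR adjusted p = 8.23e-05), Rbl2 and Lin37 are subunits of the DREAM complex (-0.55 and -0.60), and Ccnd3 is a D cyclin (-0.37). Other genes of that complex or its family went other ways. Lin9 rose from 0.213 to 0.579 RPKM to 0.683 to 1.29 RPKM and Rbl1 from 0.245 to 0.394 RPKM to 0.401 to 0.829 RPKM (edgeR adjusted p = 0.000267 and 0.00118, also named after their values were seen). Neither overlapped, as for 4.85% of all genes tested. Lin54, E2f4, E2f5, and Tfdp1 overlapped, at control and pre-metastatic medians of 0.947 and 0.96, 13.4 and 11, 2.15 and 2.17, and 6.54 and 7.7 RPKM. Wee1, another inhibitory kinase of Cdk1 and a clock target, ranged from 0.279 to 4.6 RPKM in control liver and from 0.396 to 9.74 RPKM in pre-metastatic liver (edgeR adjusted p = 0.203).

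The second comparison set the primary tumor against the pre-metastatic liver of the same mice. Here 42 of 42 genes rose, against 43.8% of the 19749 genes tested, and 42 of 42 did not overlap, against 52.9% of genes. In each gene the tumor exceeded the liver in 9 of 9 mice, Cdkn1a included. The median log2 fold change was 3.10 over the S-phase genes and 4.61 over the mitotic genes, against 0.13 over all genes tested. Scaling by library totals moved the median of all genes to 1.3 and the share of risers among called genes from 52.5% to 76%, with all 42 still higher.

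Fold changes here are TMM-scaled, and RPKM is scaled by library totals, so ratios of the RPKM levels are larger than the folds given beside them. The log2 fold change of Pcna was 2.54 with TMM and 3.72 with library totals, and that of Ccnd1 3.09 and 4.31. Genes that did not pass between the livers rose in tumor. Pcna went from 14.5 to 22.9 RPKM in pre-metastatic liver to 189, 274, and 294 RPKM (lowest, median, and highest) in tumor, a TMM-scaled rise of 5.81-fold. Tk1 had the smallest rise, 2.38-fold (log2 fold change 1.25 ± 0.28, edgeR adjusted p = 0.000392), and Cdc25c the largest, 75.4-fold, from 0.00872 to 0.229 RPKM to 7.68 to 16.1 RPKM. Fewer than 5 pre-metastatic livers reached 10 counts of Cdc25c, which passed the count filter here through the tumors. Top2a reached 92.6, 112, and 161 RPKM, Ube2c 105, 130, and 177 RPKM, and Ccnd1 175, 185, and 240 RPKM (lowest, median, and highest), the latter a TMM-scaled rise of 8.52-fold over the pre-metastatic liver. Foxm1 and Mybl2 rose 54.8-fold and 44.9-fold, E2f1 and E2f8 10.5-fold and 7.35-fold, and Ccnd2, Ccne1, and Ccne2 7.98-fold, 4.07-fold, and 6.54-fold. Cdkn1a was at 49 to 97.9 RPKM in tumor against 0.617 to 9.98 RPKM in pre-metastatic liver, a rise of 2.78 ± 0.47, or 3.32 with the mouse as a replicate block.

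Among tumors, summed levels ran from 592 to 932 RPKM for the S-phase genes and from 798 to 1220 RPKM for the mitotic genes. Tumor M4 was the highest in 19 of 21 mitotic genes and tumor M10 in 9 of 12 S-phase genes, whereas in liver these places were held by M6 and M12. Foxm1 was at 75.4 RPKM in tumor M4 and at 38.3 to 50.6 RPKM in the other 8 tumors. Of the other lists, 34 of 36 replication genes, 46 of 46 mitotic genes, 26 of 31 regulators tested, and 11 of 18 p53 targets rose over pre-metastatic liver, against 43.8% of all genes tested. Granulocyte and red cell precursor sums in tumor were at 1.03 to 35.1 RPKM and 1.19 to 5.48 RPKM, while leukocyte markers summed to 108 to 217 RPKM and fibroblast markers to 494 to 792 RPKM.

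The third comparison set the tumor against control liver, and it shares its samples with the first 2. In it 41 of 42 genes rose, against 44.2% of the 19320 genes tested, and 42 of 42 did not overlap, against 56.4% of genes. The medians were 4.55 for the S-phase genes and 7.97 for the mitotic genes, against 0.18 over all genes tested, and the latter median was 1.26 with library totals. Bub1 rose by 9.99 ± 0.35 and Ccnb1 by 9.26 ± 0.32 on the log2 scale, from 0 to 5 and 1 to 15 counts per control liver, while Tk1 and Tyms rose by 1.63 ± 0.23 and 2.37 ± 0.16. Bub1, Ccnb1, and Cdc25c could not have passed the count filter on the control livers alone and entered through the tumors. The same held for Ccnb2, Cdc20, Cdca8, Bub1b, Aurkb, Plk1, Kif23, Cenpe, Cenpf, Birc5, Ube2c, and Mybl2, each with a control liver under 10 counts. All of these are among the 41 risers, and all but Mybl2 enter the mitotic median. Cdkn1a did not pass (log2 fold change 0.41 ± 0.36, edgeR adjusted p = 0.298) even though its lowest tumor, at 49 RPKM, exceeded its highest control liver, at 39.3 RPKM. It passed with library totals as the scaling (log2 fold change 1.51, edgeR adjusted p = 0.00139) and by the exact Wilcoxon test on RPKM (adjusted p = 0.00136).

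By gene span, introns included, 19 of the 42 genes overlap another gene, which does not show that reads are shared. The library kit does not mark strand, so reads of genes on opposite strands cannot be told apart where their exons overlap. Mcm7, Rrm1, E2f1, Foxm1, and Mybl2 overlap only genes on their own strand. Afmid, on the strand opposite to Tk1, was at 21 to 48 RPKM in control liver and 7.29 to 26.6 RPKM in pre-metastatic liver (log2 fold change -1.16, edgeR adjusted p = 0.00925), well above Tk1 itself. Cstf1, opposite to Aurka, was at 7.54 to 8.72 and 5.29 to 8.78 RPKM, Exosc9, opposite to Ccna2, at 8.2 to 10.5 and 5.25 to 9.35 RPKM, and Elovl1, opposite to Cdc20, at 8.63 to 12 and 9.36 to 12.5 RPKM. Tk1, Aurka, and Ccna2 were among the smallest changes of their classes, and the part of the overlap in that was not tested. Over the genes that overlap no other, the median log2 fold change of the mitotic genes exceeded that of the S-phase genes by 1.71, against 1.85 over all. The pseudogenes Pcna-ps2 and Tyms-ps were at no more than 0.202 and 0.0694 RPKM in any liver, and reads that match both a gene and its copy may be missing from the counts.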

How the data were processed

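RNA was sequenced from 23 libraries: 5 control livers, 9 pre-metastatic livers, and 9 primary tumors. Per the submitters' processing notes, reads were aligned with HISAT2 to mm10 and counted with HTSeq 0.6.0. The authors deposited raw counts and RPKM for each gene in 46 columns, and RPKM recomputed from the counts differed by at most 1.75e-06 of the value. The 2 symbols on more than 1 line were summed. Counts were tested with edgeR 4.0.16 in R 4.3.3 (TMM, quasi-likelihood test, Benjamini-Hochberg adjustment over all genes tested, threshold 0.05), after removing genes that did not reach 10 counts in 5 or more of the libraries compared. Each comparison was fitted on its own 2 groups, and the 3 comparisons share samples. The script was tested on simulated data. Log2 CPM used a prior count of 2. Depth limits genes at a few counts, where fold changes depend on the prior count.

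The members, lists, and tests were chosen with earlier results of these data known. Named were all 42 members, of each other list the 2 genes with the largest change called in the first and in the second comparison, and Wee1 and Trp53. Genes outside this rule were named after their values were seen. Clock phase was read from 6 genes as log2(RPKM + 1). By the labels, tumor and pre-metastatic liver with the same number come from the same mouse. Over 17827 genes their deviations had a mean correlation of 0.0586 (lowest -0.0324), against -0.00746 between mice, and 2 mice correlated best with their own liver. Promoters came from RefSeq (GRCm38.p6). The library kit, per the labels, does not mark strand. Alternatives were DESeq2 1.42.0, library totals, no filter, clock phase as a covariate or within phase, the mouse as a replicate block, each library left out, an exact Wilcoxon test on RPKM, and, added after the data were seen, the 23 genes that overlap no other gene. Python 3.11.15 with pandas 2.3.3, scipy 1.17.1, and matplotlib 3.10.9 was used for summaries and figures.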

Additional observations from a re-analysis of the deposited data

Results flagged for a closer look

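Of 126 sets of levels (each of the 42 genes in each of the 3 groups), 8 held a library apart from the others of its group by Dixon's criterion, which chance meets in about 5% of sets. In control liver, C7 was at 0.967 RPKM of Tyms against 0.484 to 0.607 RPKM in the others, and at 3.8 RPKM of Cdkn1a against 22.8 to 39.3 RPKM. C5 was at 1.69 RPKM of Aurka against 1.08 to 1.16 RPKM, and at 0.149 RPKM of Kif11 against 0.0447 to 0.0569 RPKM. C1 was at 0.0464 RPKM of Cdc20, that is 5 counts, against 0.265 to 0.299 RPKM, and C4 was at 0.00448 RPKM of Cenpe, that is 2 counts, against 0.0169 to 0.0302 RPKM. In pre-metastatic liver, M2 was at 0.0709 RPKM of Plk1, that is 7 counts, against 0.348 to 1.35 RPKM. In tumor, M4 was at 75.4 RPKM of Foxm1 against 38.3 to 50.6 RPKM.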

How the results depend on the processing

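Between pre-metastatic and control liver, 32 (exact Wilcoxon test) to 35 of the 42 genes passed under each alternative run, and 33 to 35 with 1 library left out. Over all genes, 5270 of the 16987 tested passed in the main fit, in either direction. Tk1, which did not pass, changed sign with clock phase as a covariate (-0.0332) and in the early phase (-0.435), and the cause was not tested. Of the single-gene values of this comparison 759 kept direction and call, 14 lost the call, all of them Mcm7, and 4 gained it, all of them Tyms. These counts leave out the exact Wilcoxon test, by which Mcm7 (adjusted p = 0.081) and Cdkn1a (adjusted p = 0.0604) lost the call. In tumor against pre-metastatic liver 42 genes passed under each alternative, with the mouse as a replicate block too, which changed no call of the genes. Most genes passed in that comparison, 16457 of the 19749 tested in the main fit, in either direction. There, the median log2 fold change of the S-phase genes was 4.29 with library totals, and that of the mitotic genes 5.80 with library totals and 5.20 in the late phase, where the mitotic median exceeded the S-phase median by 2.06. In tumor against control liver 41 to 42 genes passed, where 15895 of all 19320 genes tested passed in the main fit, in either direction. The S-phase median there was 5.62 with library totals and 5 over genes that overlap no other, and the mitotic median was 9.04 with library totals and 7.65 to 8.22 with 1 library left out. Their difference there ran from 3.07 (without C6) to 3.66 (without C5) and was 3.19 over genes that overlap no other. With 1 control liver in the late phase, no late-phase fit of the liver comparison could be made.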
